A study of Rattus norvegicus with 18 samples.

Results

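The 8 immediate early genes described here were measured in rat cervical dorsal root ganglia, the clusters of sensory nerve cell bodies and their glia beside the spinal cord. They were taken as the rows of the mRNA count table whose RefSeq symbol is Fos, Fosb, Junb, Nr4a1, Ier2, Dusp1, Btg2 or Arc. All 8 were found among 15075 identifiers, of which 14193 matched a symbol, and all 8 passed the filter on low counts in each comparison. Poly(A) RNA was sequenced from 18 adult Lister hooded rats, 6 per group. The naive rats had no injury and no vector. In both other groups the corticospinal tracts had been cut on both sides at the pyramids of the medulla (bilateral pyramidotomy, bPYX), and on the day after injury an adeno-associated viral vector of serotype 1 with a CMV promoter was injected into the forelimb flexor muscles on 1 side. The vector encoded green fluorescent protein in the bPYX+GFP group and human neurotrophin-3 in the bPYX+NT3 group, and ganglia were taken 10 weeks after the injury. Ganglia C6 to C8 of the treated side were pooled within each rat and not between rats, so each value is 1 animal. Behavioural tests, nerve recordings and nerve tracing are described for the injured rats, and whether the naive rats had the same is not given in the sources used here.

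Immediate early genes are switched on within minutes of a stimulus by transcription factors that are already present in the cell, such as CREB at cyclic AMP response elements and serum response factor at CArG boxes. Their RNAs are short-lived, so the level at any moment reflects recent signalling. In sensory ganglia they are known to respond to calcium entry, growth factors acting through ERK kinases, stress and nerve injury, in neurons as well as in glia and immune cells. In whole ganglia, fewer cells of a type and less RNA per cell cannot be told apart.

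Between 10057787 and 16002410 read-pairs per rat fell on genes. No 2 libraries agreed within sampling noise, the lowest chi-square per degree of freedom between any pair being 2.81. All 10 sensory neuron markers on the list used were read, with a summed level of 10912 to 14291 CPM (counts scaled to a library of fixed size), against 2.24 to 12.6 CPM for 5 skeletal muscle markers. Among the neuron markers the highest were Nefm, Nefl and Nefh, at medians of 5419, 2723 and 2225 CPM. Snap25, at a median of 0.0896 CPM, was too low to be tested. The share of read-pairs on no annotated feature was 30.8% in bPYX+NT3 rat 11 and 31.7% in bPYX+GFP rat 57, and 32.5 to 34.6% in the other 16 rats. The same 2 rats had the highest summed sensory neuron markers of their groups (14291 and 14273 CPM) and the lowest summed satellite glia markers (1543 and 1527 CPM). Calls that change without these 2 rats are given both ways. Groups here are those of the rat numbers in the heading of the count table. The same counts are also held as 1 table per rat, and 17 of those 18 tables are recorded under a sample of another group. How calls change under that second grouping is given with each comparison.

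Promoter sequence was held for 6 of the 8 genes (all but Fos and Arc) in RefSeq's rat assembly GRCr8, a later build than the Rnor_6.0 used for the counts. The 250 bases upstream of each start were searched on both strands for the cyclic AMP response element TGACGTCA, its half-site TGACG, which the full element also contains, and the CArG box. The full element was found in 3 of the 6, Dusp1, Btg2 and Ier2, and in 1.59% of all 33469 promoters. A half-site was found in 5 of the 6, against 18.2% of all promoters. No CArG box (1.5% of promoters) was found in the 6, and Fosb held none of the letters searched. The stretches that hold the matches in the genes described most closely below are shown 5′ to 3′ on the strand of the gene, with the matching letters in capitals.
Dusp1, chr10:17184704-17184761, plus strand, 58 bases with the full element starting 124 bases before the start: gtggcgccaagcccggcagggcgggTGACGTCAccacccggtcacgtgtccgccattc
Btg2, chr13:48087859-48087916, minus strand, 58 bases with the full element starting 201 bases before the start: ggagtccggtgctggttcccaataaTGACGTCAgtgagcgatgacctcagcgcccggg
Ier2, chr19:40399282-40399339, plus strand, 58 bases with the full element starting 66 bases before the start: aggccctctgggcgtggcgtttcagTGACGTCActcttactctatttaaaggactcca
Nr4a1, chr7:134260031-134260114, plus strand, 84 bases with 2 of its 4 half-sites, starting 82 and 53 bases before the start: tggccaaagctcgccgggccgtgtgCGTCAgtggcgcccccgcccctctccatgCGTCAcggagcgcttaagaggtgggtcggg
Junb, chr19:40080946-40081000, plus strand, 55 bases with its half-site, starting 155 bases before the start: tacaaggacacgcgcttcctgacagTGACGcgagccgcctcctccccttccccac
A match is a description of these letters and says nothing of whether a factor was bound in these ganglia.

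The first question was the level of each gene in each group. Values are normalised read counts, that is read-pairs divided by the rat's effective library size and multiplied by the mean effective size, and they are not scaled by transcript length, so levels were compared between rats and not between genes. None of the 8 genes separated any pair of groups: the ranges overlapped for all 8 in all 3 comparisons. Over all genes tested, 0.241% did not overlap between naive and bPYX+GFP rats, 0.265% between naive and bPYX+NT3 rats and 0.0602% between the injured groups.

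Fos, Fosb and Junb encode subunits of the AP-1 transcription factor, in which a Fos protein pairs with a Jun protein. Fos (NM_022197) had a lowest, median and highest normalised read count of 53.1, 105 and 121 in naive rats, 62.5, 85.3 and 134 in bPYX+GFP rats and 61.8, 105 and 188 in bPYX+NT3 rats. The highest value was that of bPYX+NT3 rat 17 and the lowest that of naive rat 49, and the 3 groups lay over each other between them. Fosb (NM_001256509) had values of 47.5, 60.1 and 120 in naive rats, 42.5, 75.4 and 94.98 in bPYX+GFP rats and 44.1, 80.9 and 123 in bPYX+NT3 rats, so that 1 naive rat stood with the highest bPYX+NT3 rats. Junb (NM_021836), read at 4 to 64 read-pairs per rat, had values of 7.75, 15.4 and 16.9 in naive rats, 4.86, 11.9 and 21.3 in bPYX+GFP rats and 12.8, 16.9 and 50.1 in bPYX+NT3 rats. The value of 50.1 was that of rat 11, and the next in that group was rat 17 at 26.5. The other 4 bPYX+NT3 rats lay between 12.8 and 17.6, within the range of the bPYX+GFP rats.

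Nr4a1 encodes an orphan nuclear receptor that acts as a transcription factor, and Ier2 encodes a small nuclear regulator of transcription. Nr4a1 (NM_024388) had a lowest, median and highest of 144, 213 and 394 in naive rats, 203, 240 and 287 in bPYX+GFP rats and 239, 261 and 385 in bPYX+NT3 rats. The naive rats spanned the widest range, with naive rat 41 above every injured rat. Ier2 (NM_001009541) had values of 14.4, 23.3 and 32.3 in naive rats, 20.5, 26.1 and 29.3 in bPYX+GFP rats and 15.5, 21.8 and 41.5 in bPYX+NT3 rats, from 13 to 53 read-pairs per rat. Its 3 groups lay over each other.

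Dusp1 encodes a nuclear phosphatase that inactivates MAP kinases and so limits the signal that induces it, and Btg2 encodes an antiproliferative regulator of transcription and mRNA decay. Dusp1 (NM_053769) had values of 550.0, 788 and 895 in naive rats, 716, 843 and 928 in bPYX+GFP rats and 572, 772 and 1009 in bPYX+NT3 rats. This gene was read most often, at 497 to 1288 read-pairs per rat, and its highest value was 1.83-fold its lowest over the 18 rats. Btg2 (NM_017259) had values of 256, 394 and 644 in naive rats, 329, 434 and 565 in bPYX+GFP rats and 293, 448 and 718 in bPYX+NT3 rats, with its lowest value again in naive rat 49 and its highest in bPYX+NT3 rat 17. Arc encodes a cytoskeletal protein of active synapses, and was at the edge of detection with 2 to 24 read-pairs per rat. Arc (NM_019361) had values of 1.76, 9.65 and 20.4 in naive rats, 11.4, 14.2 and 17.0 in bPYX+GFP rats and 9.84, 16.1 and 19.7 in bPYX+NT3 rats. All 6 bPYX+GFP rats and all 6 bPYX+NT3 rats were above the naive median of Arc, yet naive rat 41 had more than any of them.

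**Figure D1:**
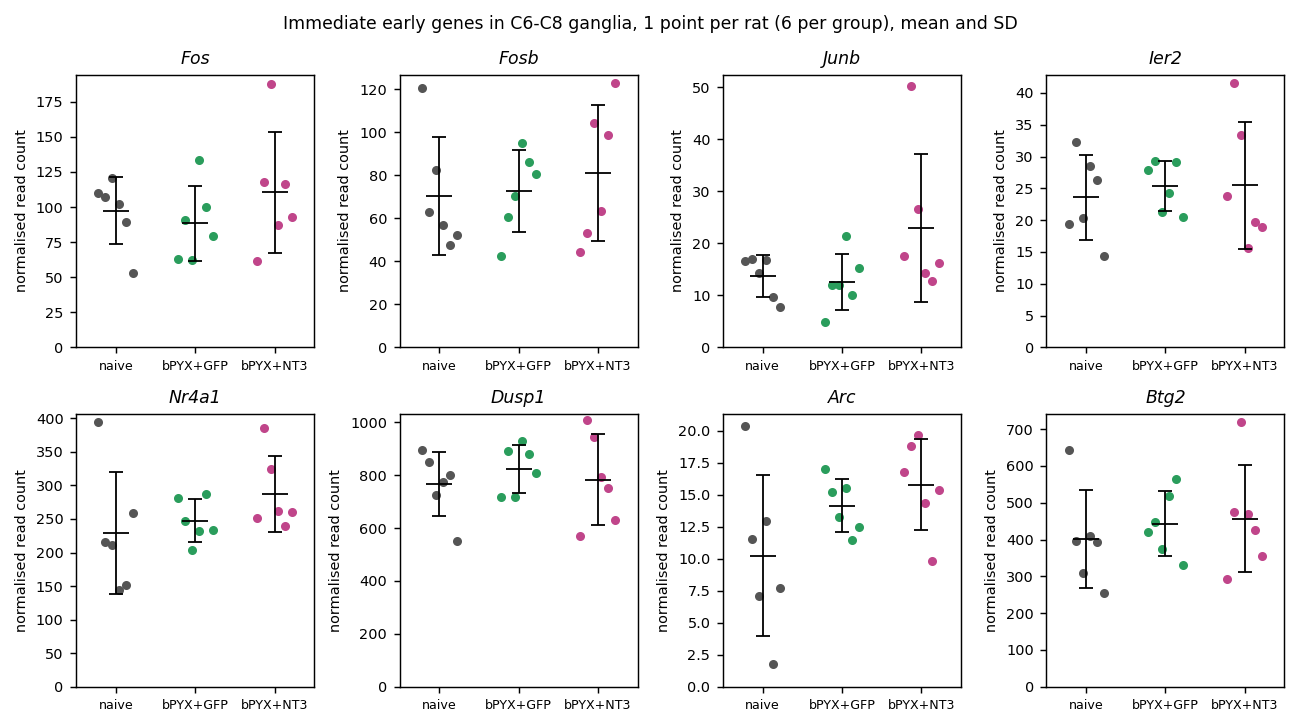
Normalised read count (vertical axis, from 0) of the 8 genes in the 18 rats, by group, with 1 point per rat and the mean and SD in black. The groups overlap in every panel, and the point at 50.1 in the Junb panel is bPYX+NT3 rat 11.

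The comparison of bPYX+GFP with naive rats asked whether the injury with a control vector left a change in these genes at 10 weeks. By edgeR's quasi-likelihood fit none of the 8 genes reached an unadjusted p of 0.05, where 3.25% of the 11601 genes tested did (0.733% higher and 2.52% lower) and none reached an adjusted p of 0.05. Genes below are said to pass, rise or fall at an unadjusted p under 0.05. The same held for the 8 genes under DESeq2 and under edgeR's likelihood ratio test, which gave 16 and 13 adjusted calls over all genes. Fos stood at 97.2 ± 23.9 against 88.4 ± 26.8 with GFP (mean ± SD, n = 6 each), a ratio of 0.912 with a 95% interval of 0.662 to 1.26. The narrowest interval was that of Dusp1, whose ratio was 1.08 with an interval of 0.916 to 1.26. Arc had the widest, with a ratio of 1.38 and an interval of 0.800 to 2.39 (edgeR quasi-likelihood p = 0.224, adjusted p = 1.00, exact permutation p = 0.126). Arc passed the filter of more than 10 reads mainly through the bPYX+GFP rats. Its median was 8.5 read-pairs in naive rats and 14 in bPYX+GFP rats. A p that misses the threshold does not show that the groups are alike, and for Arc a change of 2-fold lies inside the interval, whereas for Dusp1 it does not. Under the second grouping, Fosb passed, higher by 0.58 on the log2 scale (edgeR adjusted p = 0.993), and the other 7 genes did not. Over all genes 174 of 11686 passed there.

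Between bPYX+NT3 and naive rats 1 of the 8 genes passed, where 6.01% of 11693 genes did (3.09% higher and 2.92% lower). This was Junb, at 13.7 ± 4.03 against 22.95 ± 14.2 with NT3 (mean ± SD, n = 6 each). Its log2 fold change was 0.76 (SE 0.35, 95% interval 0.01 to 1.50, edgeR p = 0.047, adjusted p = 0.607, exact permutation p = 0.113), with 4 of the 6 bPYX+NT3 rats above the naive median. Without rat 11, the log2 fold change of Junb was 0.35 and did not pass (edgeR adjusted p = 0.990), and the call was also lost without rat 17 or any 1 of naive rats 43, 44, 45 and 49. Arc had a log2 fold change of 0.63 (SE 0.37, edgeR p = 0.113, exact permutation p = 0.0736) and Nr4a1 one of 0.32 (SE 0.22, edgeR p = 0.160, exact permutation p = 0.136), with all 6 bPYX+NT3 rats above the naive median in both. Leaving out naive rat 41, the highest naive rat in both, brought them to 0.96 and 0.55 and past the threshold. Without that rat 1185 of 11652 genes passed, against 703 of 11693 with it. Arc again passed the filter of more than 10 reads mainly through the group where it was higher. Its median was 18 read-pairs in bPYX+NT3 rats and 8.5 in naive rats. For Fos the ratio was 1.13 (95% interval 0.788 to 1.63), for Dusp1 1.02 (0.825 to 1.26) and for Btg2 1.14 (0.812 to 1.59). Under the second grouping the log2 fold change of Junb was -0.78 and did not pass, and Arc was the 1 gene that did, at -0.94 (edgeR adjusted p = 0.837 for both). Over all genes 330 of 11599 passed there.

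Between the 2 injured groups, which asks for an effect of the NT3 vector itself, Junb was again the 1 gene of 8 to pass, where 1.73% of 11623 genes did (1.08% higher and 0.654% lower). These last 2 comparisons share the bPYX+NT3 rats. The level was 12.6 ± 5.47 with GFP and 22.95 ± 14.2 with NT3, a log2 fold change of 0.86 (SE 0.39, 95% interval 0.02 to 1.70, edgeR p = 0.0444, adjusted p = 0.851, exact permutation p = 0.0736), with all 6 bPYX+NT3 rats above the bPYX+GFP median. The value was 0.44 without rat 11 and 0.83 without rat 17, and 0.51 without rats 11 and 57 (edgeR adjusted p = 0.444), and none of these 3 passed. The call was also lost without any 1 of bPYX+GFP rats 5, 15, 18 and 52. Nr4a1 had the next smallest p, with a log2 fold change of 0.22 (SE 0.13, edgeR p = 0.118, exact permutation p = 0.160). Fos had a ratio of 1.25 (95% interval 0.855 to 1.82), Dusp1 one of 0.951 (0.780 to 1.16) and Btg2 one of 1.03 (0.777 to 1.37), so for all 3 a change of 2-fold in either direction lies outside the interval. Under the second grouping the log2 fold change of Junb was -0.41 and did not pass, and Fosb was the gene that did, at -0.47 (edgeR adjusted p = 1.00 for both). Over all genes 263 of 11646 passed there.

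**Figure D2:**
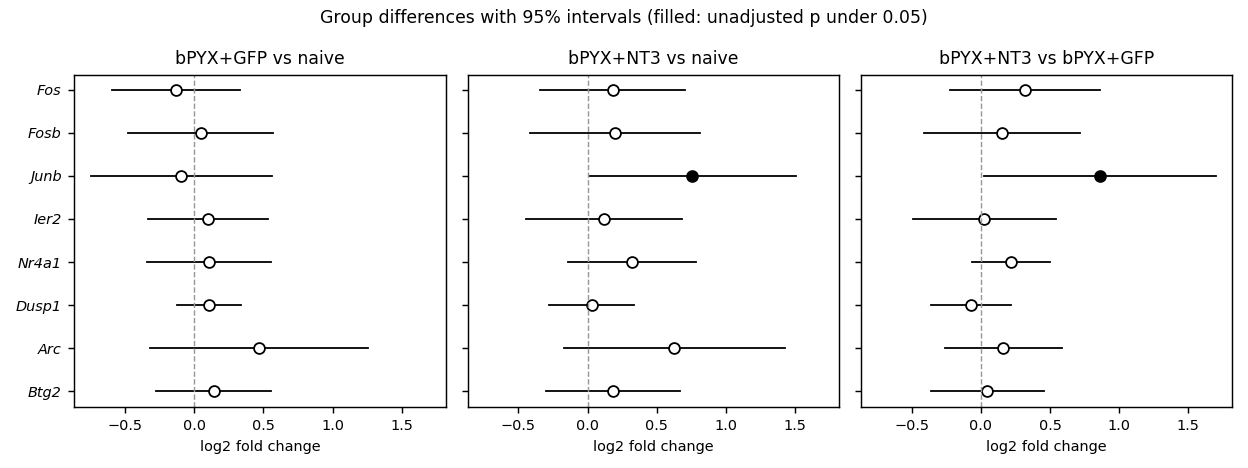
Log2 fold change (horizontal axis) of the 8 genes in the 3 comparisons, with 95% intervals from edgeR; filled points have an unadjusted p under 0.05. Only Junb in the 2 comparisons with bPYX+NT3 rats is filled, and its intervals reach down to 0.01 and 0.02.

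Junb also moved with a property of the libraries. Within groups, its level fell by 0.46 on the log2 scale (SE 0.11) for each percentage point more read-pairs on no feature (edgeR adjusted p = 0.00116), in a fit where 34.6% of 11821 genes had a negative slope at p under 0.05 and 64.4% had an adjusted p under 0.05 in either direction. Nr4a1 (slope -0.18, adjusted p = 0.0455) and Dusp1 (slope -0.12, adjusted p = 0.0466) did so too, and the other 5 genes did not pass (adjusted p 0.0901 to 0.586). Rat 11, with the lowest share, had the highest Junb, Ier2 and Dusp1 of the 18 rats. With the share as a covariate the log2 fold change of Junb was 0.28 against naive rats and 0.49 against bPYX+GFP rats (edgeR adjusted p = 0.999 and 1.00), and neither passed. The median log2 fold change of the 8 genes was 0.10, 0.19 and 0.16 in the 3 comparisons in the order given, against 0.01, 0.00051 and 0.0049 over all genes tested.

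Other immediate early genes were taken from lists. Of 21 tested transcription factors of this class, none rose and 2 fell between naive and bPYX+GFP rats (0.733% and 2.52% of all genes), namely Egr2, a regulator of myelination in Schwann cells (log2 fold change -0.30, SE 0.12), and Nfil3, a basic leucine zipper factor (-0.51, SE 0.22). Egr2 is also on the list of Schwann cell markers, of which 3 of 7 fell in this comparison and none rose (median -0.31), the others being the myelin protein gene Pmp22 (-0.31, SE 0.11) and the tight junction gene Cldn19 (-0.43, SE 0.18). Of 5 fibroblast markers 3 fell, Col1a1 (-0.49, SE 0.12), Col3a1 (-0.35, SE 0.09) and Lum (-0.23, SE 0.10), and of 8 endothelial markers 1 rose, Tie1 (0.30, SE 0.13). The part of these cells in the calls was not tested. Between naive and bPYX+NT3 rats 1 rose and none fell (3.09% and 2.92% of all genes). This was Egr1, a zinc finger factor induced through serum response factor, at 51.9 ± 20.04 in naive rats and 88.4 ± 29.5 with NT3 (log2 fold change 0.76, SE 0.26, edgeR p = 0.0111, adjusted p = 0.607, exact permutation p = 0.0260). All 6 bPYX+NT3 rats were above the naive median of Egr1, and it passed in all 12 fits that left out 1 rat. Between the injured groups 2 rose and none fell (1.08% and 0.654% of all genes), Nfil3 (0.60, SE 0.27) and Egr1 (0.49, SE 0.22), and this call of Egr1 held in 4 of the 12 fits that left out 1 rat. Egr1 also fell with the share on no feature, by 0.40 per percentage point (edgeR adjusted p = 7.9e-06), and its highest values among injured rats included rat 11 at 138 and rat 57 at 92.8. With that share as a covariate the log2 fold change of Egr1 was 0.47 against naive rats, which still passed, and 0.27 against bPYX+GFP rats, which did not (edgeR adjusted p = 0.768 and 1.00). Without rats 11 and 57 it was 0.58 and 0.46, and both passed (edgeR adjusted p = 0.990 and 0.385). Over all genes, 365 of 11636 passed there against naive rats, in place of 703 of 11693. Between the injured groups 1462 of 11477 did, in place of 201 of 11623. Between naive and bPYX+NT3 rats the cell markers that fell were 1 of 7 for Schwann cells, 3 of 5 for fibroblasts, 1 of 6 for satellite glia and 1 of 2 for adipocytes, and those that rose were 2 of 8 for endothelial cells and 1 of 9 for sensory neurons. Between the injured groups 2 of 7 smooth muscle and pericyte markers and 1 of 6 satellite glia markers were higher with bPYX+NT3, and 2 of 2 adipocyte markers were lower.

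Counts in this paragraph stand beside the shares of all genes that rose and fell. These were 0.733% and 2.52% for bPYX+GFP against naive and 3.09% and 2.92% for bPYX+NT3 against naive. Between the injured groups they were 1.08% and 0.654%. Of 26 tested regulators that are not transcription factors, 2 fell with bPYX+GFP against naive, the kinase gene Plk2 (-0.29, SE 0.08) and the matricellular protein gene Ccn1 (-0.67, SE 0.21). None passed with bPYX+NT3 against naive, and 1, Plk2, was higher with bPYX+NT3 than with bPYX+GFP (0.24, SE 0.10). Among 7 ERK phosphatases and feedback genes, Spry2 (-0.25, SE 0.07) and Dusp10 (-0.42, SE 0.14) fell with bPYX+GFP against naive, none passed with bPYX+NT3 against naive, and the ERK inhibitor Spry4 (0.37, SE 0.12) was higher with bPYX+NT3 than with bPYX+GFP. Among neuronal activity genes none of 12 passed in either comparison with naive rats and 1 of 13 was higher with bPYX+NT3 than with bPYX+GFP, the secreted peptide precursor gene Vgf (0.55, SE 0.22). No gene of these lists had an adjusted p under 0.05 in any comparison. Under the second grouping none of the 12 calls on these 4 lists passed, and 7 of the 12 values turned in sign, among them Egr1 in both comparisons (-0.61 and -0.39). Without rats 11 and 57, 10 of the 12 passed, and Nfil3 (0.42) and Plk2 (0.20) between the injured groups did not. Over all genes, calls without these 2 rats were 595, 365 and 1462 in the 3 comparisons, in place of 377, 703 and 201.

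The second question was how far rats of 1 group differed. The within-group SD of log2 CPM exceeded the median of genes of like level (within 1 log2 unit of mean CPM) in 7 of the 8 genes. Btg2 had an SD of 0.40, against a median of 0.18 for the 3539 genes of like level, of which 5.85% had as large an SD. For Nr4a1 (SD 0.36), Fosb (0.50), Dusp1 (0.25) and Fos (0.45) the share of genes of like level with as large an SD was 14.8%, 15.5%, 16.2% and 16.7%. Junb (0.57) and Arc (0.55) had shares of 25.6% and 31.1%, and Ier2 (0.39) had a share of 56.99%. The SD that random counting alone would give at the mean read count was 0.37 for Arc, 0.33 for Junb and 0.28 for Ier2, but 0.14 for Fos, 0.07 for Btg2 and 0.05 for Dusp1, so counting error was a larger part of the spread of the first 3 genes than of the others.

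**Figure D3:**
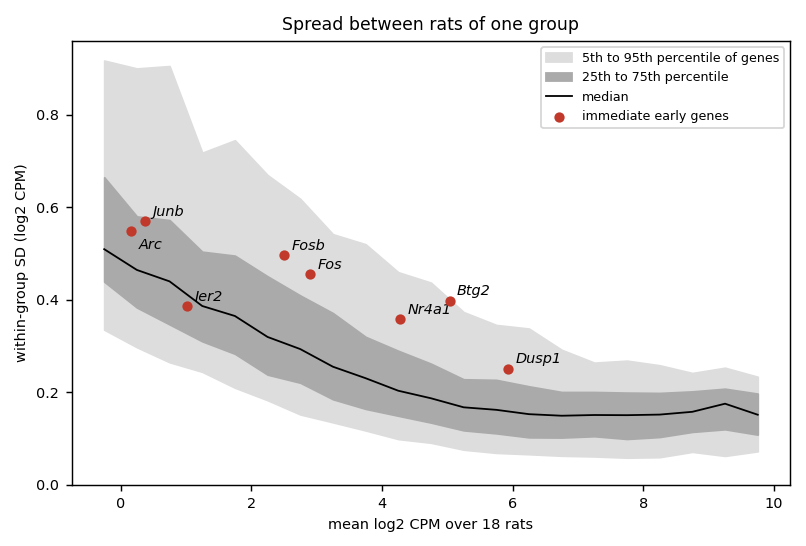
Within-group SD of log2 CPM (vertical axis) against mean log2 CPM over 18 rats (horizontal axis) for the 8 genes as red points, with percentiles of all genes in bins of level as grey bands. Btg2 sits near the 95th percentile, and Ier2 lies at or under the median line.

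Some animals were high or low across several genes. Rat 17 of the bPYX+NT3 group was among the 3 highest of 18 rats in all 8 genes, and rat 11 of the same group in 5 of 8. Naive rat 41 was among the 3 highest in 4 genes, and naive rat 49 among the 3 lowest in 6. Averaged over the 8 genes, the deviation from the 18-rat mean was 0.60 on the log2 scale in rat 17, 0.50 in rat 11 and 0.37 in rat 41, and -0.55 in rat 49 and -0.46 in naive rat 45. By group this average ran from -0.55 to 0.37 in naive rats, -0.24 to 0.27 in bPYX+GFP rats and -0.20 to 0.60 in bPYX+NT3 rats. High and low animals were thus found in more than 1 group.

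**Figure D4:**
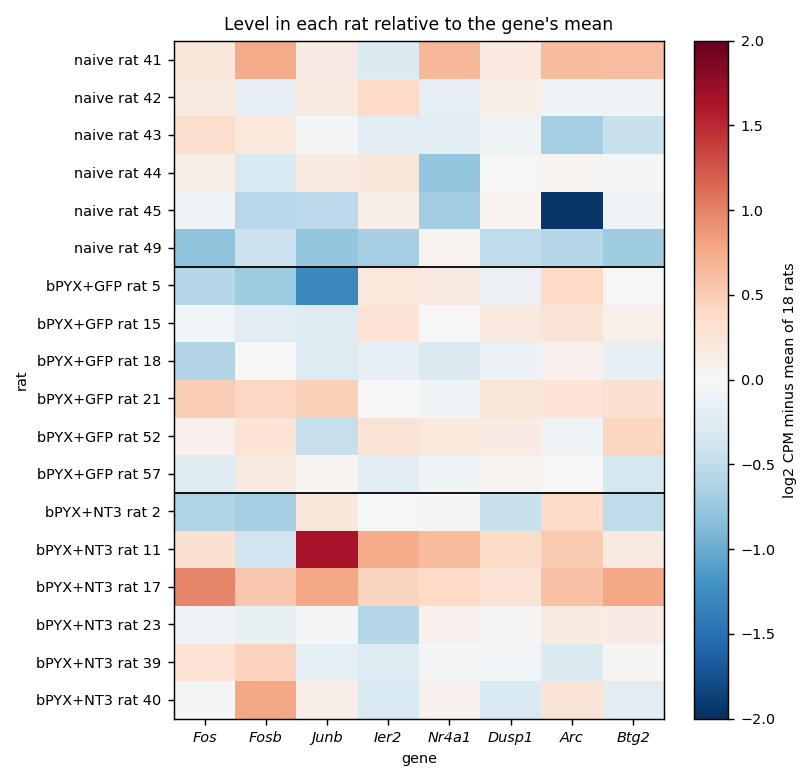
Level of each gene (columns) in each rat (rows, by group), coloured by log2 CPM minus the gene's mean over 18 rats. The row of bPYX+NT3 rat 17 is above the mean in all 8 genes, and that of naive rat 49 is below it in 7.

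To ask whether the genes rose and fell together from rat to rat, the group means were removed and each gene was fitted on Fos over the 18 rats. Of the 7 other genes 4 had a positive slope at an unadjusted p under 0.05, where 4.71% of 11820 genes did, and 0.99% had a negative slope. After adjustment over all genes none of the 11820 passed with the quasi-likelihood test, against 73 with edgeR's likelihood ratio test. None passed by permutation either, but there the smallest possible p was 1e-05, so a single gene could not have passed alone. A gene at that limit had an adjusted permutation p of 0.118 for rho. For r the smallest adjusted permutation p was 0.313. Under the second grouping 5 of the 7 had a positive slope at an unadjusted p under 0.05, where 621 of 11820 genes did, in place of 557. The added gene was Ier2 (slope 0.50, edgeR adjusted p = 0.506). Over all genes 5 passed there after adjustment, none of them among the 7.

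Dusp1 followed Fos most closely of the 7. It rose by 0.46 on the log2 scale (SE 0.09, 95% interval 0.27 to 0.64) per log2 unit of Fos (edgeR adjusted p = 0.0657). Pearson's r was 0.82 (permutation p = 0.00028, adjusted 0.313) and Spearman's rho 0.76 (permutation p = 0.00079, adjusted 0.464), and 0.0423% of genes had as high an r. Within naive, bPYX+GFP and bPYX+NT3 rats r was 0.83, 0.95 and 0.79 (n = 6 each, exact permutation p = 0.0986, 0.00417 and 0.0625). Without rats 17 and 49, the 2 farthest from the median of Fos, r was 0.71 (permutation p = 0.00689).

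Btg2 rose by 0.67 (SE 0.15, 95% interval 0.36 to 0.98) per log2 unit of Fos (edgeR adjusted p = 0.141). Its r was 0.74 (permutation p = 0.0018, adjusted 0.351) and its rho 0.69 (permutation p = 0.00335, adjusted 0.464), with 0.58, 0.69 and 0.92 within the 3 groups (exact permutation p = 0.271, 0.122 and 0.0222). Without rats 17 and 49, r was 0.51 (permutation p = 0.0396). The full cyclic AMP response element printed above lay before the starts of Dusp1, Btg2 and Ier2. Ier2 had an r with Fos of 0.47, and Fosb, which held none of the letters searched, one of 0.59. The part of the element in the covariation was not tested.

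Fosb had an r with Fos of 0.59 (rho 0.61, permutation p = 0.0175 and 0.0130, adjusted 0.666 and 0.668) and kept 0.55 without rats 17 and 49 (permutation p = 0.0335). Junb had an r of 0.58 (rho 0.64, permutation p = 0.0230 and 0.00826, adjusted 0.721 and 0.592) and 0.52 without those rats, which missed the threshold by permutation (p = 0.0901), while its edgeR slope was 1.14 there (adjusted p = 1.00) and still passed at the unadjusted threshold. Their slopes were 0.65 (SE 0.24) and 0.82 (SE 0.31). Ier2 had an r of 0.47 (rho 0.50, permutation p = 0.0811 and 0.0502, adjusted 0.995 and 0.819), and 0.15 without those rats. Nr4a1 (r = 0.15, rho = 0.30, permutation p = 0.574 and 0.244, adjusted 1.00 and 0.892) and Arc (r = 0.17, rho = 0.22, permutation p = 0.499 and 0.413, adjusted 1.00 and 0.892) did not follow Fos beyond the test, and 28.5% and 25.8% of all genes had as high an r.

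Among the 28 pairs of the 8 genes, 27 had a positive r, with a median of 0.37. The highest after Fos with Dusp1 was Dusp1 with Btg2 (r = 0.82, rho = 0.88), then Fos with Btg2 and Junb with Dusp1 (r = 0.67). Nr4a1 had its highest r with Arc (0.57), and the 1 negative pair was Fosb with Ier2 (-0.24). Without rats 17 and 49 the median was 0.31 and 27 pairs were still positive. Over the 18 rats, 8 of the 28 pairs had an unadjusted permutation p of r under 0.05. Of all 11820 genes, 52.1% had a positive r with Fos, with a median of 0.013, and no such share of r was computed for the other members. Slopes at an unadjusted edgeR p under 0.05 were counted with 2 other members in place of Fos. With Junb 4668 of 11820 genes had one (2641 positive) and with Dusp1 1204 (805 positive), against 674 with Fos (557 positive). The values of the pairs share 18 libraries and their depth and are given as a description.

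**Figure D5:**
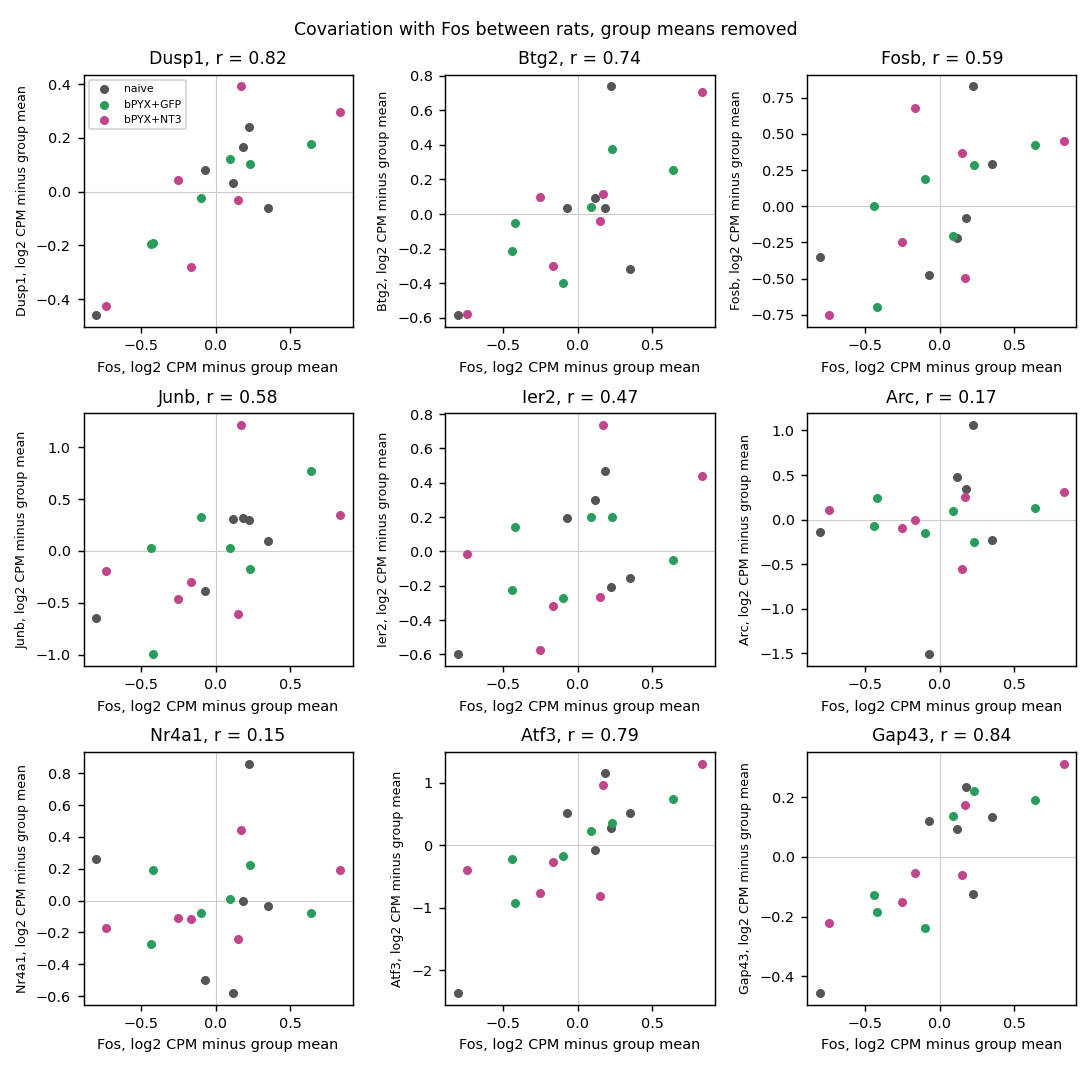
Log2 CPM minus the group mean of 7 genes of the set and of Atf3 and Gap43 (vertical axes) against that of Fos (horizontal axis), 1 point per rat, coloured by group, with Pearson's r above each panel. Dusp1 has an r of 0.82 with points of all 3 groups along 1 rising band, and Nr4a1 and Arc, at 0.15 and 0.17, show none.

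By likeness to Fos in group-centred log2 CPM over 18 rats, the 10 genes outside the set with the highest r were Lcp1, Gap43, Srxn1, Il1a, Il24, Stat4, C14h1orf146, Smad1, Gadd45a and Atf3. Their r ran from 0.79 to 0.85 and rho from 0.67 to 0.86, with adjusted edgeR p-values of 0.0657 to 0.204. As the genes were picked for their r, these values are a description. Within naive, bPYX+GFP and bPYX+NT3 rats alone r ran from 0.62 to 0.91, 0.75 to 0.92 and 0.70 to 0.94, and without rats 17 and 49 from 0.56 to 0.76.

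Atf3, a transcription factor known for its induction in injured sensory neurons, had a lowest, median and highest normalised read count of 104, 714 and 1207 in naive rats, 225, 442 and 717 in bPYX+GFP rats and 368, 515 and 1604 in bPYX+NT3 rats. Naive rat 49 had the lowest value of the 18 rats and rat 17 the highest, as for Fos. Gap43, a growth cone protein, had 3152, 4662 and 5096 in naive rats, 3465, 4116 and 4768 in bPYX+GFP rats and 3827, 4288 and 5544 in bPYX+NT3 rats, again with rats 49 and 17 at the ends. Il24, a cytokine of the interleukin 10 family, ran from 5.32 to 66.8 over the 18 rats, and Gadd45a, a gene of growth arrest and DNA damage, from 521 to 1592. The 5 genes with the lowest r were Dcun1d3, Mafg, Mtrfr, Ttc41 and Trmt9b, at -0.79 to -0.68.

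The same lists were read for the slope on Fos, to be set beside the 4.71% of all genes with a positive and the 0.99% with a negative slope at p under 0.05. Of 21 other immediate early transcription factors 10 had a positive slope at p under 0.05 and none a negative one, led by Atf3 (slope 1.49, SE 0.31), Nfil3 (0.78, SE 0.18) and Jun (0.38, SE 0.09), the AP-1 partner of Fos. Their median slope was 0.32, against 0.0054 over all genes. Of 26 other regulators 8 had a positive slope, led by Gadd45a (0.78, SE 0.14) and the cytokine genes Il6 (1.84, SE 0.45) and Ccl2 (0.51, SE 0.16), and none a negative one. Of 7 ERK phosphatases and feedback genes 2 did, Dusp5 (0.30, SE 0.12) and Dusp6 (0.25, SE 0.12). Of 13 neuronal activity genes 3 had a positive slope, Adcyap1 (0.48, SE 0.13), Vgf (0.62, SE 0.22) and Bdnf (0.76, SE 0.27), and 1 a negative one, the somatostatin gene Sst, which is named here after its value was seen. Of 12 heat shock genes 1 passed, Hspa1a, an inducible chaperone gene (0.23, SE 0.10), and of 13 hypoxia-response genes 1 did, the hexokinase gene Hk2 (0.88, SE 0.21). Of 13 glucocorticoid-responsive genes 2 had a positive slope, the metallothionein gene Mt1 (0.79, SE 0.37) and the zinc finger gene Zbtb16 (0.62, SE 0.30), and Pdk4, a kinase gene of glucose metabolism, had a negative one (-0.50, SE 0.17). None of these had an adjusted p under 0.05. Of the 16 slopes on these lists given with a value, 14 also passed under the second grouping (not Mt1 and Zbtb16) and 13 without rats 11 and 57 (not Dusp6, Hspa1a and Zbtb16). Both settings kept rats 17 and 49, the 2 farthest from the median of Fos. Without rats 17 and 49, positive slopes over all genes went from 557 of 11820 to 105 of 11776, and negative ones from 117 to 67. Without rat 17 alone the counts were 253 positive and 134 negative of 11785 genes. The slopes on these lists and of the cell markers below are not given without those rats.

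Markers of other cells were read in the same way and against the same shares of all genes. Of 8 macrophage markers 2 had a positive slope on Fos, Aif1 (0.45, SE 0.20) and Cd68 (0.68, SE 0.30), with a median slope of 0.39, and of 6 blood cell markers 3 did, Cd3e (1.71, SE 0.49), S100a8 (1.24, SE 0.46) and S100a9 (1.05, SE 0.44). None of the 9 sensory neuron, 6 satellite glia, 7 Schwann cell, 8 endothelial, 7 smooth muscle and pericyte, 5 fibroblast, 2 skeletal muscle or 2 adipocyte markers tested passed. Summed over its 8 genes, the macrophage list stood at 111 to 206 CPM in naive, 80.7 to 168 CPM in bPYX+GFP and 101 to 221 CPM in bPYX+NT3 rats, the highest value being that of rat 17, the animal with the most Fos. The blood cell list, of 8 genes, stood at 55.3 to 435 CPM in naive, 67.4 to 187 CPM in bPYX+GFP and 63.8 to 204 CPM in bPYX+NT3 rats, with its highest value in naive rat 44. Every marker on both lists was read in at least 1 rat. The part of these cells in the covariation was not tested. Without rats 11 and 57 the slope of Dusp1 on Fos passed the adjusted threshold, and r with Fos was 0.87 for Dusp1, 0.75 for Btg2, 0.67 for Fosb and 0.69 for Junb.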

How the data were processed

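The authors sequenced poly(A) RNA as 50-base read-pairs from a stranded library, aligned it to Rnor_6.0 with TopHat2, kept 1 read of each set of duplicates with Picard and counted read-pairs per RefSeq gene with HTSeq. The deposited values are these raw counts. Tool versions beyond bcl2fastq 1.8.4 are not given in the sources used here. Members and lists were chosen with earlier results of these data known.

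Groups came from the rat numbers in the heading of the count table. Identifiers with more than 10 reads in at least 6 rats of a fit were tested with edgeR 4.0.16 (R 4.3.3, TMM, quasi-likelihood F test), 2 groups of 6 rats at a time, with DESeq2 1.42.0 as an alternative. Calls used the study's threshold, an unadjusted p of 0.05, with Benjamini-Hochberg values over all identifiers beside it. Standard errors and intervals were derived from the fold change and its test statistic. Log2 CPM used a prior count of 2. Exact permutation tests were two-sided on log2 CPM, and 6 against 6 rats cannot give p under 0.00216. Correlations used 100000 permutations of rats within groups, whose smallest possible p is 1e-05. Single genes were named as all members, Egr1, at most 3 genes per list with the smallest p under 0.05, and the 10 highest and 5 lowest correlations with Fos. The fits were tested on simulated data.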

Additional observations from a re-analysis of the deposited data

Results flagged for a closer look

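In groups of 6 rats, 33 sets of values were screened for a highest or lowest animal whose gap to the next, divided by the whole range, was above 0.625, a limit that chance passes in about 1 of 20 sets, and 4 were above it. Junb at 50.1 normalised read counts in bPYX+NT3 rat 11 stood apart from the other 5 rats of its group, at 12.8 to 26.5. Egr1 at 92.8 in bPYX+GFP rat 57 stood apart from 51.0 to 66.0 in the others. The share of read-pairs on no feature stood apart in the same 2 animals, at 30.8% in rat 11 against 32.9 to 34.2% in its group, and at 31.7% in rat 57 against 33.6 to 34.2%. Fos, Fosb, Nr4a1, Ier2, Dusp1, Arc and Btg2 had no such animal in any group. The part of the share on no feature in these 2 values was not tested beyond the fits with that share as a covariate.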

How the results depend on the processing

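Low counts limit Junb, Arc and Ier2 most, which start at 4, 2 and 13 read-pairs per rat. A permutation of 6 against 6 rats called 0 of the 8 genes in each comparison. Between naive and bPYX+GFP rats 0 of 8 genes were called under every alternative except the second grouping, which called 1 of 8 and 174 of all 11686. Between naive and bPYX+NT3 rats the 1 call, Junb, was lost (0 of 8) with DESeq2, with the share on no feature as a covariate and without rats 11 and 57, and 0 were called where a gene needed more than 10 reads in every rat, since Junb was then not tested. Between the injured groups it was lost (0 of 8) with that covariate, that filter and without those rats. The cause of these changes was not tested. Leaving out 1 rat at a time gave 0 to 3 calls against naive rats (0 without rat 43, 44, 45, 49, 11 or 17, and 3 without rat 41) and 0 to 1 between the injured groups (0 without rat 5, 15, 18, 52, 11 or 17). Over all genes such fits gave 365 to 1387 calls against naive rats, with 1185 without rat 41. Between the injured groups they gave 95 to 2291, the most being without rat 57.

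The second grouping, which the paper's own values do not follow, reversed these log2 fold changes. For bPYX+GFP against naive they were 0.14 for Fos, -0.45 for Ier2, -0.089 for Nr4a1, -0.0087 for Dusp1, -0.23 for Arc and -0.22 for Egr1. For bPYX+NT3 against naive they were -0.11 for Fos, -0.78 for Junb, -0.36 for Ier2, -0.40 for Nr4a1, -0.098 for Dusp1, -0.94 for Arc, -0.27 for Btg2 and -0.61 for Egr1. Between the injured groups they were -0.24 for Fos, -0.47 for Fosb, -0.41 for Junb, -0.31 for Nr4a1, -0.72 for Arc, -0.31 for Btg2 and -0.39 for Egr1. With the share on no feature as a covariate, Ier2 turned to -0.15 and Dusp1 to -0.087 against naive rats, and Ier2 to -0.14 between the injured groups. Without rats 11 and 57, Ier2 turned to -0.082 and Dusp1 to -0.059 against naive rats, and Ier2 to -0.24 and Btg2 to -0.045 between the injured groups. None of these values but those of Arc against naive rats and Fosb between the injured groups passed.

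Leaving out 1 rat at a time turned the sign of some values that had not passed. For bPYX+GFP against naive, Fosb ran from -0.048 to 0.27, Junb from -0.31 to 0.064 and Ier2 from -0.0028 to 0.22. For bPYX+NT3 against naive, Fos ran from -0.022 to 0.31, Ier2 from -0.082 to 0.24 and Dusp1 from -0.059 to 0.11. Between the injured groups, Fosb ran from -0.0067 to 0.28, Ier2 from -0.18 to 0.12, Dusp1 from -0.16 to 0.0050 and Btg2 from -0.13 to 0.15. Arc passed the filter in 6 of the 12 fits of the first comparison that left out a rat.

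Calls among the other immediate early transcription factors and regulators together were 4, 1 and 3 in the 3 comparisons. The likelihood ratio test gave 2 in the second and 5 in the third, where 743 of 11693 and 184 of 11623 of all genes passed. The second grouping gave 2 in the first and 5 in the second, where 174 of 11686 and 330 of 11599 passed. Leaving out 1 rat gave 3 to 6, 1 to 6 and 0 to 7. Over all genes such fits gave 272 to 595 calls in the first comparison, and those of the other 2 are given above. For covariation with Fos, adjusted calls among the 7 genes rose from 0 to 2 (Dusp1 and Btg2) with the likelihood ratio test and with the share on no feature as a covariate, and to 1 (Dusp1) without rats 11 and 57. Over all 11820 genes adjusted calls went from 0 to 73 and 205 in the first 2 of these, and to 7 of 11737 genes in the last. The count of 4 at an unadjusted p of 0.05 was 3 to 4 when 1 rat was left out, and the slopes of Dusp1 and Btg2 passed that threshold in all 18 such fits. The count of 7 genes with a spread above the median of like genes was 6 to 7.

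Replicate numbers were not used as pairs in the main fits, since same-numbered rats correlated at -0.40 to 0.53 and not above 0.1 in every pair. Between naive and bPYX+NT3 rats number 3 stood at -0.30 and the others at 0.29 to 0.53. Whether the numbers mark a shared step of processing was not tested. With the replicate number as a block, 0, 2 (Junb and Arc) and 0 of the 8 genes were called in the 3 comparisons, and Ier2 turned to -0.041 between the injured groups. The block gave 316, 2962 and 130 calls over all genes in place of 377, 703 and 201. The block and the fits without rats 11 and 57 were chosen after the data were seen.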
